A study of Mus musculus with 5 samples.

Results

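The 34 genes described here encode the core machinery of DNA replication, namely the MCM2-7 helicase and the factors that load it, the origin recognition complex, the GINS complex with Cdc45 and Mcm10, the sliding clamp PCNA and its loader, the catalytic subunits of the replicative polymerases, enzymes of deoxynucleotide synthesis and the E cyclins. They were taken from a list of gene symbols, each symbol was found in the expression tables through its RefSeq transcripts, and all 34 were present among the 25415 genes of the tables. Their mRNA was compared between 2 samples of mouse neural stem cells (NSCs) and 3 samples of STO cells, a mouse embryonic fibroblast line that is widely used as a feeder layer. The NSCs were primary cells from mid-gestation embryonic cortex at passages 5 to 8, grown as a monolayer on poly-l-ornithine and laminin in a neural medium with EGF, bFGF, heparin and B27. The STO cells (SIM embryonic fibroblasts, resistant to thioguanine and ouabain) were past 30 passages and grew in high-glucose DMEM with fetal bovine serum, and they are 1 long-established line rather than several isolates. Both cell types carry the strain label C57BL/6, and passage, medium and cell type differ together between the groups. Nothing in the labels says that the samples of a group were separate cultures, so the p-values below measure only the spread between these samples.

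Replication is prepared before S phase, when the origin recognition complex marks origins and, with Cdc6 and Cdt1, loads the MCM2-7 ring onto DNA. Cyclin E with Cdk2 and the Dbf4-dependent kinase Cdc7 then trigger the recruitment of Cdc45 and GINS, which turn the loaded ring into the active CMG helicase, and polymerases alpha, delta and epsilon copy the unwound strands while PCNA holds them in place. Many of these genes are transcribed at the G1 to S transition under the control of E2F factors, and both neural progenitors of the embryonic cortex and fibroblast lines use the same machinery in every division.

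Expression was given as FPKM, fragments per kilobase of transcript scaled to the mapped fragments of the library, so that levels can be compared between genes per length. The files implied 15223341 to 22271895 assigned fragments per sample, and 233 to 11959 for each of the 34 genes in a sample. These numbers were worked back from the confidence intervals of the estimates and are rough. In the first NSC sample Mcm6 (64.0 FPKM, 4355 bases) gave 1678, whereas Rrm1 (74.1 FPKM, 3997 bases) gave 8989. The cell types matched their defining markers, since Sox2 was 308 and 276 FPKM in the NSCs and 0 in all STO samples, whereas Col1a2 was 353 to 374 FPKM in the STO cells and at most 0.00609 in the NSCs. The NSC samples also held Mbp (83.4 and 88.3 FPKM), a myelin gene, Gfap (15.9 and 16.9 FPKM), which is also a marker of astrocytes, and Map2 (100.4 and 102 FPKM), a neuronal gene, while Dcx, which marks young neurons, was 4.87 and 4.56 FPKM and Rbfox3, which marks mature neurons, was 0.624 and 0.405 FPKM. Of the 6 neuronal and oligodendrocyte markers listed, 5 were higher in every NSC sample and Tubb3 overlapped, and their summed level was 229 and 231 FPKM in the NSCs and 13.8, 13.4 and 13.8 FPKM in the STO cells. Endothelial and microglial markers were at or below 0.17 FPKM in every sample. How far such cells contributed to the levels below was not tested. In bulk RNA, fewer cells in S phase and less RNA per cell cannot be told apart.

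The replication genes stood above the typical gene in both cell types, and more of them were higher in STO cells than lower. The median member was at 20.4 FPKM in the NSCs and 25.2 FPKM in the STO cells, against 11.0 and 11.5 FPKM over all 12293 genes tested. Of the 34 members, 20 (58.8%) were higher in STO cells and 7 (20.6%) were lower at an adjusted p under 0.05 in limma, and 7 did not pass the test. Over all genes tested, 41.9% were called higher and 43.7% lower, so most genes of any kind differed between these cell types. The balance of the members lay towards STO cells, with a median difference in log2(FPKM + 1) of 0.26 against -0.02 for all genes tested, but their differences were small, with a median size of 0.40 against 0.74. At a log2 difference of at least 1, 6 members (17.6%) were higher in STO cells, against 17.1% of all genes, and 0 were lower, against 21.3% of all genes. The samples of the cell types did not overlap for 27 members (79.4%), against 89.9% of all genes tested.

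**Figure D1:**
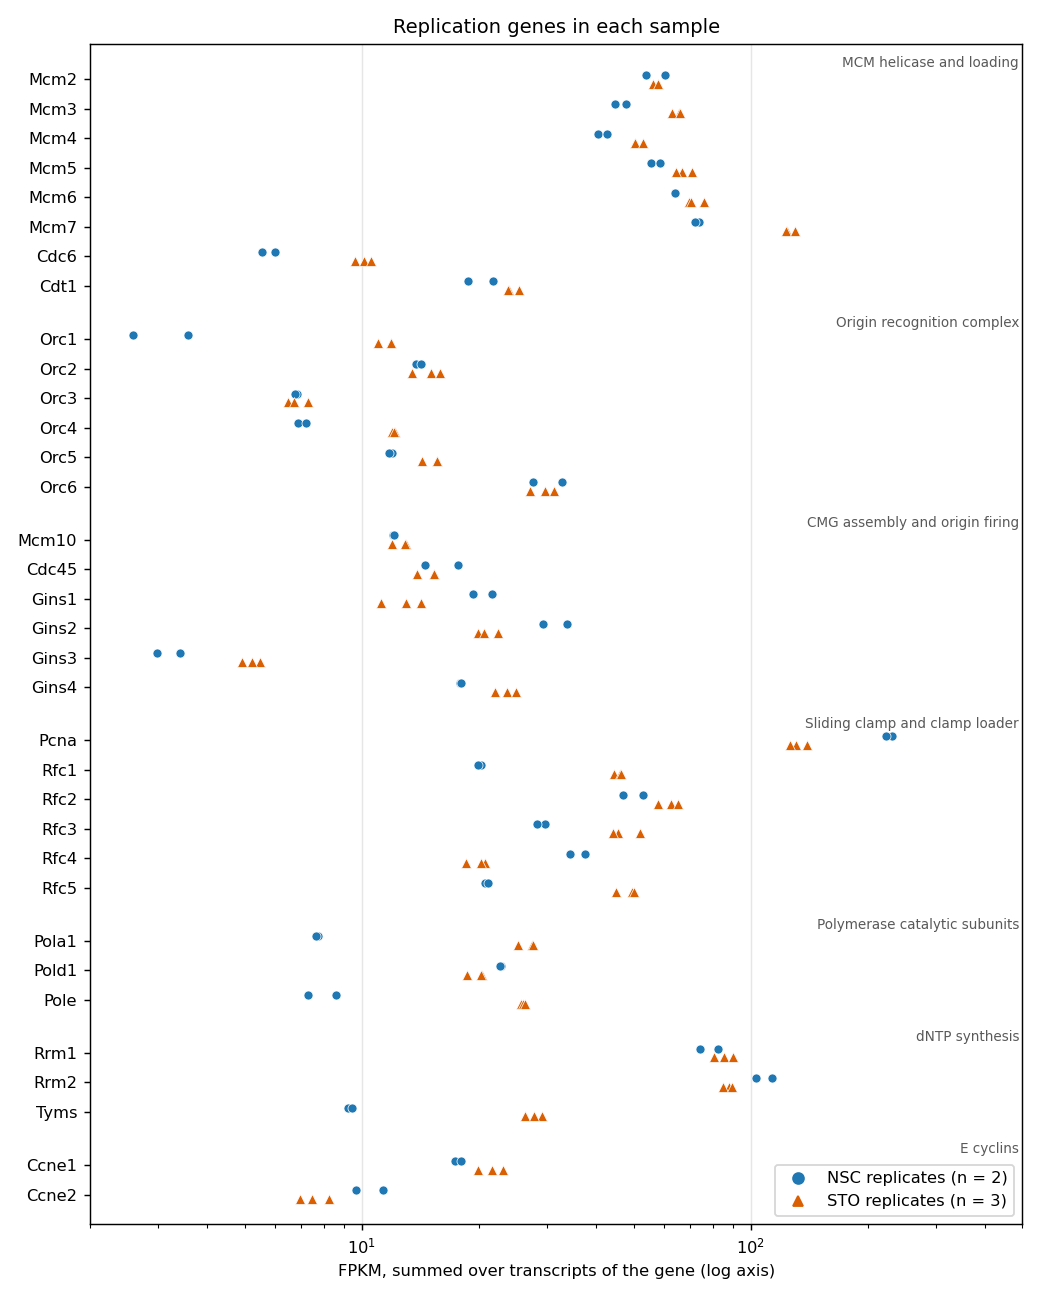
Level of each of the 34 replication genes in each sample as FPKM on a log axis, with NSC samples as circles (n = 2) and STO samples as triangles (n = 3), ordered by role. Pcna was the most abundant gene in every sample, Orc1 and Gins3 were the lowest in the NSCs, and the largest separations between the cell types are those of Orc1, Pola1, Pole and Tyms.

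**Figure D2:**
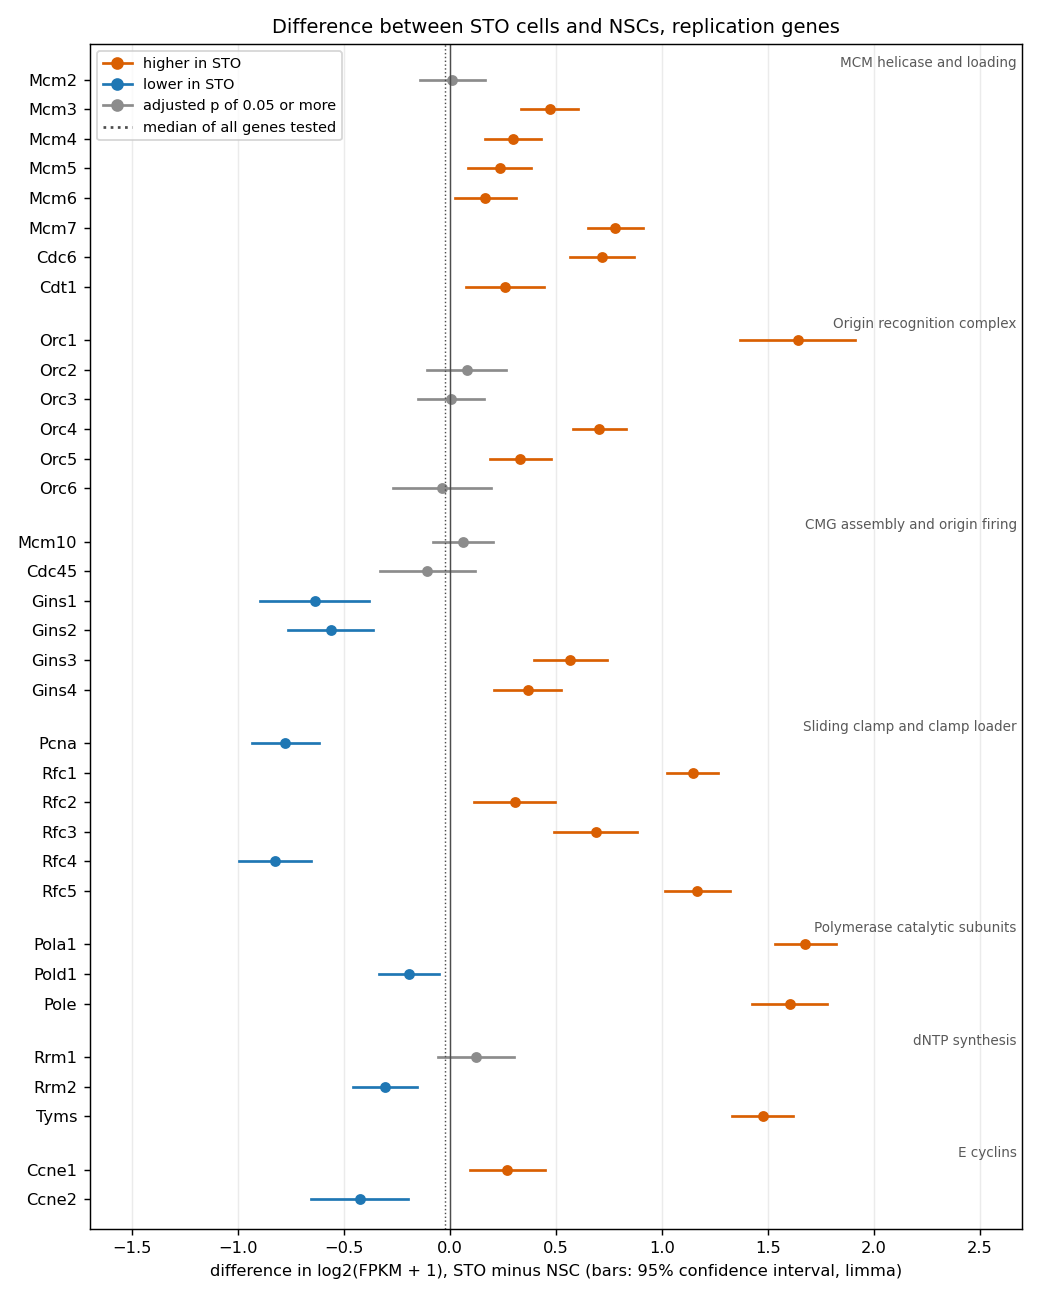
Difference in log2(FPKM + 1) between STO cells and NSCs for each replication gene, as the limma estimate with its 95% confidence interval, coloured by the call at an adjusted p of 0.05. The 20 genes called higher reach 1.68 for Pola1, the 7 called lower reach -0.83 for Rfc4, and the dotted line marks the median of all genes tested (-0.02).

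Because many replication genes are known to be controlled from E2F sites close to their starts, the promoter windows of the members were searched for such sites. RefSeq windows of 300 bases (250 before the start and 50 from it on, build GRCm38.p6) were given for 27 of the 34 members, in 31 windows, and Ccne2, Gins1, Gins2, Gins4, Mcm4, Pole and Rfc2 had none. An E2F site, spelled as TTTCCCGC, TTTGGCGC, TTTCGCGC or TTTGCCGC on either strand, stood in 12 of the 31 windows (38.7%), against 2.26% of the 32851 windows of all genes. The CCAAT box (CCAAT, either strand) stood in 20 of the 31 (64.5%) against 37.4% of all windows, and the CHR element of late cell cycle genes (TTTGAA or TTCGAA, either strand) in 5 (16.1%) against 19.2%. The following windows are those of some of the genes with large rises or falls and of Mcm6, whose window holds 3 E2F matches. They read 5′ to 3′ on the gene's strand, with E2F matches in capitals and the rest in lower case.
Orc1, chr4:108579204-108579503, plus strand: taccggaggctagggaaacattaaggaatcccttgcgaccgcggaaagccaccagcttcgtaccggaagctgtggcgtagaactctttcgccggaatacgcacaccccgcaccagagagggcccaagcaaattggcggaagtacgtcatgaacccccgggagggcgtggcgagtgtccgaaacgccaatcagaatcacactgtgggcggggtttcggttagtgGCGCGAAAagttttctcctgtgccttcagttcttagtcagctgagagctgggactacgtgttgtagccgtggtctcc
Pola1, chrX:93632106-93632405, minus strand: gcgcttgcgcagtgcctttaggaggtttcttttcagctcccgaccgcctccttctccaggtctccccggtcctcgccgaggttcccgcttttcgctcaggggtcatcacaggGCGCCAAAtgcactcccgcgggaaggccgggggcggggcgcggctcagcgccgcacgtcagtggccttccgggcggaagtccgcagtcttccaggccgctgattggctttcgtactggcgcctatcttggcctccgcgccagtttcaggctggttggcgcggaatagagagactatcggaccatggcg
Mcm6, chr1:128359656-128359955, minus strand: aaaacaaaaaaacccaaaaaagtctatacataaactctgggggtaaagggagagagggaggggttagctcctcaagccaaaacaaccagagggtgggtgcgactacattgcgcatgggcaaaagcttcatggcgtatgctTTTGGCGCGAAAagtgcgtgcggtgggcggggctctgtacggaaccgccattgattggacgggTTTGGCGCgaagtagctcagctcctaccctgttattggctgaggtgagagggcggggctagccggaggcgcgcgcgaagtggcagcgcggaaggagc
Tyms, chr5:30073576-30073875, minus strand: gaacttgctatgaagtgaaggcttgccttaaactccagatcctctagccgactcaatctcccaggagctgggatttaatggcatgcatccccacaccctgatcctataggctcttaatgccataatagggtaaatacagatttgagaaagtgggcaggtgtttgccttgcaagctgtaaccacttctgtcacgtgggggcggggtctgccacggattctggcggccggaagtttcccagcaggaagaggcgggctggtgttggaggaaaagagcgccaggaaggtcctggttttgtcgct
Pcna, chr2:132253131-132253430, minus strand: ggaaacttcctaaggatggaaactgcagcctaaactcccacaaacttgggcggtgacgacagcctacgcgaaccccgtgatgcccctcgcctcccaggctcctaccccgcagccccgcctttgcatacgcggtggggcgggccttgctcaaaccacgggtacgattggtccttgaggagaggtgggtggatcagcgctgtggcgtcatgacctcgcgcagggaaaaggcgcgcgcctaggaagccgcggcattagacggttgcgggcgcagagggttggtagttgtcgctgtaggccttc
Rfc4, chr16:23127681-23127980, minus strand: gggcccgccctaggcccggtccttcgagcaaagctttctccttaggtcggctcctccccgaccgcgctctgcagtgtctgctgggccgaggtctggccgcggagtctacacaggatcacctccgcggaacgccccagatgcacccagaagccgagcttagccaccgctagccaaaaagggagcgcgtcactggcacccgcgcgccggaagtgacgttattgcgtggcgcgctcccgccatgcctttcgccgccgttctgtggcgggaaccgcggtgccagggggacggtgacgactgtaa
In the Orc1 window the match GCGCGAAA begins 27 bases before the start, and in the Pola1 window GCGCCAAA begins 138 bases before it. The Mcm6 window holds TTTGGCGC and GCGCGAAA 110 and 106 bases before the start, which overlap, and TTTGGCGC again 47 bases before it. The Tyms, Pcna and Rfc4 windows hold none of the searched letters for E2F, and neither do those of Rfc1 and Rfc5, which are not shown. Large rises (Tyms at 1.47, Rfc5 at 1.17 and Rfc1 at 1.14) and large falls (Pcna and Rfc4) thus both occurred without a match. Among the 12 members with a match, 10 were higher in STO cells, 1 was lower (Pold1) and 1 did not pass the test (Orc3), with a median log2 difference of 0.52. Among the 15 members with a window and no match, 6 were higher, 3 were lower and 6 did not pass the test, with a median of 0.08. Over all genes tested, 41.9% were called higher and 43.7% lower, with a median of -0.02. Of the members with a match, Mcm5 and Mcm6 lost their calls when length decile medians were subtracted, as described below. The called members with a window and no match kept theirs. These are descriptions of short windows, and the difference between the groups of genes was not tested.

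Within the MCM2-7 helicase, which unwinds DNA at the fork as a ring of 6 related subunits, 5 subunits were higher in STO cells and Mcm2 did not pass the test. Mcm7 (chr5:138605811-138613111, mm9, minus strand) was 73.8 and 71.8 FPKM in the NSCs and 124, 123 and 129.8 FPKM in the STO cells. All STO samples lay above both NSC samples, with a log2 difference of 0.78 (SE 0.05, adjusted p = 1.66e-05). The introns of Mcm7 carry the microRNA genes Mir25, Mir93 and Mir106b, whose own levels were not measured here. Mcm3 was 47.9 and 44.9 FPKM in the NSCs and 65.3, 62.8 and 65.6 FPKM in the STO cells, again without overlap (log2 difference 0.47, adjusted p = 0.000246). Mcm4 was 40.4 and 42.7 against 50.4, 50.5 and 52.8 FPKM (0.30, adjusted p = 0.00209). The remaining rises were small. Mcm5 was 55.6 and 58.3 FPKM in the NSCs and 66.7, 64.3 and 70.5 FPKM in the STO cells (0.23, adjusted p = 0.0107), and Mcm6 was 64.0 and 63.9 against 69.3, 70.5 and 75.8 FPKM (0.17, adjusted p = 0.036). The Mcm5 call was lost without the first NSC sample (adjusted p = 0.069), and the Mcm6 call was lost when any of the 5 samples was left out. Mcm2 was 53.8 and 60.1 FPKM in the NSCs and 58.0, 56.1 and 57.8 FPKM in the STO cells, so that the STO samples all lay between the NSC samples, and its difference of 0.01 had a 95% confidence interval of -0.14 to 0.16. The subunits were therefore less even in STO cells, where the highest stood 2.45 times above the lowest, than in NSCs, where this ratio was 1.75. The summed level of the 6 subunits was 339 ± 4.37 FPKM in the NSCs (SD, n = 2) and 438 ± 12.9 FPKM in the STO cells (SD, n = 3).

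Both loaders of the MCM ring were higher in STO cells. Cdc6, the ATPase that joins the origin recognition complex to recruit MCM2-7, was 5.55 and 5.98 FPKM in the NSCs and 9.63, 10.1 and 10.5 FPKM in the STO cells. The groups did not overlap, and the log2 difference was 0.72 (adjusted p = 5.69e-05). Cdt1, which carries the ring to the origin, was 18.8 and 21.8 FPKM in the NSCs and 25.4, 24.0 and 23.8 FPKM in the STO cells (0.26, adjusted p = 0.0165). That call was lost without the first NSC sample (adjusted p = 0.071) or the first STO sample (adjusted p = 0.052). Relative to its inhibitor geminin (Gmnn), Cdt1 did not separate the cell types in FPKM as deposited, since the ratio of Cdt1 to Gmnn was 0.783 and 1.02 in the NSCs and 0.918, 0.934 and 0.828 in the STO cells. When length decile medians were subtracted, as described below, their differences were no longer alike, at 0.33 for Cdt1 and 0.79 for Gmnn. Gmnn itself was 24.0 and 21.2 FPKM in the NSCs and 27.6, 25.7 and 28.8 FPKM in the STO cells (0.27, adjusted p = 0.0161), a call that was lost without the second NSC sample (adjusted p = 0.12).

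The origin recognition complex differed by subunit, and Orc1 stood out. Orc1 (chr4:108252059-108287436, mm9, plus strand), the ATPase subunit whose abundance is known to vary through the cell cycle, was 2.58 and 3.58 FPKM in the NSCs and 11.9, 11.0 and 11.9 FPKM in the STO cells. Every STO sample was more than 3 times as high as either NSC sample, the means differed 3.77-fold, and the log2 difference was 1.64 (SE 0.11, adjusted p = 1.58e-05). The 2 NSC samples also differed by 32.8% for Orc1, the widest gap of any member, at 233 and 370 implied fragments. Orc4 was 6.86 and 7.20 FPKM in the NSCs and 12.0, 12.2 and 12.1 FPKM in the STO cells (0.70, adjusted p = 2.27e-05), and Orc5 was 12.0 and 11.8 against 15.6, 14.3 and 15.6 FPKM (0.33, adjusted p = 0.00203). For both genes the groups were apart. The other subunits did not pass the test and their samples overlapped. Orc2 was 13.8 and 14.2 FPKM in the NSCs and 13.5, 15.1 and 15.9 FPKM in the STO cells, with an interval of the log2 difference from -0.11 to 0.26. It passed the test when only its highest transcript was taken (0.27, adjusted p = 0.0248) or when the samples were brought to the same total FPKM (0.24, adjusted p = 0.0241). Orc3 was 6.82 and 6.75 against 6.45, 6.71 and 7.29 FPKM (interval -0.15 to 0.16), and Orc6 was 27.6 and 32.8 against 29.6, 27.1 and 31.3 FPKM (interval -0.27 to 0.19). Orc6, which binds the complex most loosely, was thus the most abundant subunit in both cell types, and Orc1 was the least abundant in NSCs but not in STO cells. Orc3 shares its locus with Akirin2, and Orc4 with Acvr2a and Mbd5, so reads of overlapping genes may be divided between them.

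Set against its partners in the same sample, Orc1 was 0.262 and 0.359 of the mean of Orc2 to Orc5 in the NSCs and 1.00, 0.914 and 0.935 of it in the STO cells. The ratio was thus close to 1 in every STO sample and well below it in both NSC samples. With 2 samples against 3, an exact permutation test (two-sided) allows only 10 arrangements, and its smallest p of 0.1 was reached for this ratio (0.12 after Benjamini-Hochberg adjustment over the 6 ratios computed), so no ratio could pass 0.05. The ratio of Cdc6 to the mean of Mcm2 to Mcm7 was 0.0993 and 0.105 in the NSCs and 0.133, 0.142 and 0.140 in the STO cells, also apart. Mcm7 alone rose about as much as Cdc6, with folds of the means of 1.73 and 1.75. Their order in log2 difference depended on the number added to FPKM. With 1 added, Mcm7 was at 0.78 and Cdc6 at 0.72, and with 0.1 added they were at 0.79 and 0.80. All 5 ratios whose groups were apart had the same exact permutation p of 0.1.

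**Figure D3:**
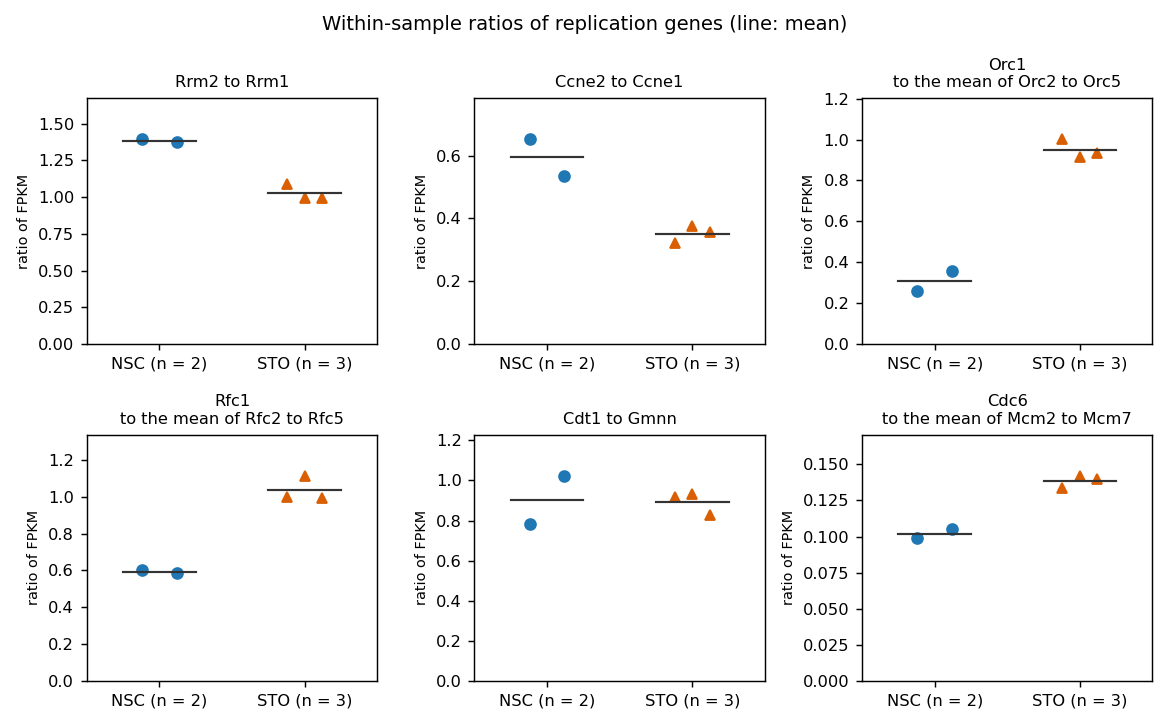
Ratios of FPKM within each sample for 6 pairs of replication genes or complexes, with NSC samples as circles (n = 2), STO samples as triangles (n = 3) and the group mean as a line, on axes that start at 0. The groups are apart in 5 of the 6 ratios, and the ratio of Cdt1 to Gmnn overlaps.

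The factors that complete the CMG helicase moved in both directions. Gins1 and Gins2 were lower in STO cells and Gins3 and Gins4 were higher, although the 4 proteins form 1 tetramer. Gins2 was 29.2 and 33.8 FPKM in the NSCs and 22.4, 19.9 and 20.7 FPKM in the STO cells. Both NSC samples lay above all STO samples, with a log2 difference of -0.56 (adjusted p = 0.000755), and its locus overlaps that of Gse1. Gins3 was 3.41 and 2.97 FPKM in the NSCs against 4.93, 5.49 and 5.22 FPKM in the STO cells (0.57, adjusted p = 0.000352), and Gins4 was 18.0 and 18.0 against 22.0, 23.6 and 24.9 FPKM (0.37, adjusted p = 0.00194). As a result the spread between the subunits was narrower in STO cells, where the highest was 4.51 times the lowest, than in NSCs, where it was 9.87 times. The sum of the 4 was 73.2 ± 4.61 FPKM in the NSCs (SD, n = 2) and 62.5 ± 2.42 FPKM in the STO cells (SD, n = 3). Its gap is about the size of 1 Gins1 transcript, described next, which was 10.0 and 9.44 FPKM in the NSCs and listed at 0 in the STO cells.

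Gins1 was called lower on the sum of its transcripts but not on its highest transcript alone. Summed over its 2 RefSeq transcripts it was 19.3 and 21.6 FPKM in the NSCs and 13.0, 11.2 and 14.2 FPKM in the STO cells, a log2 difference of -0.64 (adjusted p = 0.00135). The transcript with the nearer 3′ end (NM_001163476, ending at 150751806 on chromosome 2 in mm9) was 10.0 and 9.44 FPKM in the NSCs and was listed at 0 in all 3 STO samples. The transcript with the farther end (NM_027014, ending at 150757016) was 9.28 and 12.2 FPKM in the NSCs and 13.0, 11.2 and 14.2 FPKM in the STO cells, where it made up the whole estimate. Taking only the transcript with the highest mean over all samples (NM_027014) turned the difference to 0.24 (adjusted p = 0.16), so the fall of Gins1 lay in the shorter transcript as Cufflinks divided the reads. Orc6 showed the same kind of split, with NM_001163791 at 4.18 and 4.95 FPKM in the NSCs and listed at 0 in all STO samples, whereas its main transcript was 23.4 and 27.8 against 29.6, 27.1 and 31.3 FPKM. Of the 34 members, 20 had 1 listed transcript and 7 had several transcripts above 0, so most members could not be divided in this way.

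Cdc45, the subunit that joins GINS to the MCM ring, and Mcm10, which helps the helicase to fire, did not pass the test. Cdc45 was 17.7 and 14.6 FPKM in the NSCs and 15.3, 13.9 and 15.4 FPKM in the STO cells, with the samples overlapping and an interval of the log2 difference from -0.33 to 0.12. Mcm10 was 12.0 and 12.1 FPKM in the NSCs and 12.0, 13.0 and 12.9 FPKM in the STO cells (interval -0.08 to 0.20). Both intervals leave out differences as large as those of Gins1 and Gins2.

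Pcna, the ring that tethers polymerases to DNA and a classical marker of proliferating cells, was lower in STO cells. It was 231 and 223 FPKM in the NSCs and 131, 126 and 139.6 FPKM in the STO cells. Every NSC sample lay above every STO sample, with 1.72-fold more in the NSCs and a log2 difference of -0.78 (SE 0.06, adjusted p = 4.47e-05). Pcna was the most abundant of the 34 genes in both cell types, at 227 ± 5.22 FPKM (SD, n = 2) and 132 ± 6.84 FPKM (SD, n = 3). Its direction was opposite to that of most MCM subunits. Pcna and Tyms both have pseudogenes in the mouse genome, and reads that match gene and copy alike may have been assigned to either.

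The clamp loader, replication factor C, opens PCNA and places it on DNA, and its subunits split between the directions. Rfc1 (chr5:65653091-65726878, mm9, minus strand), the large subunit, was 20.3 and 19.9 FPKM in the NSCs and 44.5, 46.2 and 46.4 FPKM in the STO cells. All STO samples were more than 2 times as high as both NSC samples (log2 difference 1.14, SE 0.05, adjusted p = 1.78e-06). Its 3 listed transcripts were each above 0 in every sample. Rfc5 was 20.7 and 21.1 FPKM in the NSCs and 49.5, 45.0 and 50.1 FPKM in the STO cells (1.17, adjusted p = 5.51e-06). Rfc3 was 29.6 and 28.2 against 45.6, 44.2 and 51.9 FPKM (0.69, adjusted p = 0.00024), and Rfc2 was 46.9 and 52.9 against 62.5, 57.9 and 65.1 FPKM (0.30, adjusted p = 0.0101). These 3 small subunits were thus higher in STO cells without overlap, although the Rfc2 call was lost without the first NSC sample (adjusted p = 0.089). Rfc4 went the other way and had the largest fall of any member in FPKM as deposited, at 37.6 and 34.4 FPKM in the NSCs and 20.7, 18.6 and 20.2 FPKM in the STO cells (-0.83, adjusted p = 4.86e-05). The locus of Rfc4 overlaps that of Eif4a2, an abundant translation factor gene, and how reads of the overlap were assigned was not tested. In NSCs Rfc1 was 0.602 and 0.584 of the mean of Rfc2 to Rfc5, and in STO cells it was 0.998, 1.11 and 0.991 of it. The large subunit thus reached the mean of the small ones only in STO cells, where that mean includes the low Rfc4. Taken singly, Rfc5 was already near Rfc1 in the NSCs. In STO cells the mean of Rfc1 (45.7 FPKM) stayed below those of Rfc2 (61.8), Rfc3 (47.2) and Rfc5 (48.2). The summed level of the 5 subunits was 156 ± 0.951 FPKM in the NSCs (SD, n = 2) and 223 ± 10.9 FPKM in the STO cells (SD, n = 3).

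The catalytic subunits of the replicative polymerases held 2 of the largest rises. Pola1 (chrX:90550105-90877494, mm9, minus strand) encodes the catalytic subunit of polymerase alpha, which with primase starts each new strand. It was 7.74 and 7.63 FPKM in the NSCs and 25.2, 27.4 and 27.6 FPKM in the STO cells. The groups lay far apart, with a 3.48-fold difference of the means. The log2 difference was 1.68 (SE 0.06, adjusted p = 7.01e-07), the largest of the 34 on the scale of log2(FPKM + 1). In fold of the means Orc1 stood higher, at 3.77. Pole (chr5:110715338-110766472, mm9, plus strand), the catalytic subunit of the leading strand polymerase, was 7.27 and 8.57 FPKM in the NSCs and 25.7, 26.1 and 26.3 FPKM in the STO cells. It too was about as far apart (3.28-fold, log2 difference 1.60, SE 0.07, adjusted p = 2.33e-06). Pold1, the catalytic subunit of the lagging strand polymerase, was 22.8 and 22.7 FPKM in the NSCs and 20.4, 18.6 and 20.2 FPKM in the STO cells, a small fall of -0.19 (adjusted p = 0.0192) that did not pass the test when the first or the second NSC sample was left out (adjusted p = 0.085 and 0.078) or when the samples were brought to the same total FPKM (-0.03, adjusted p = 0.63). In STO cells the 3 polymerase genes stood within 1.35-fold of each other, and in NSCs Pold1 was 2.96 times as high as Pola1.

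Among enzymes that supply deoxynucleotides, Tyms rose and Rrm2 fell. Tyms (chr5:30384740-30400165, mm9, minus strand), thymidylate synthase, makes the thymidine nucleotide needed for DNA. It was 9.21 and 9.43 FPKM in the NSCs and 29.0, 26.3 and 27.7 FPKM in the STO cells. Every STO sample was well above both NSC samples (2.97-fold, log2 difference 1.47, SE 0.06, adjusted p = 1.26e-06). Ribonucleotide reductase is built from a large subunit, Rrm1, and a small subunit that is degraded outside S phase, Rrm2. Rrm2 was 103 and 113 FPKM in the NSCs and 88.0, 84.7 and 89.4 FPKM in the STO cells, without overlap (-0.31, adjusted p = 0.0036), and the call was lost when the samples were brought to the same total FPKM (-0.13, adjusted p = 0.061). Rrm1 was 74.1 and 82.6 FPKM in the NSCs and 80.7, 85.3 and 89.9 FPKM in the STO cells, where the groups overlapped and the test was not passed (0.12, interval -0.06 to 0.30, adjusted p = 0.17), although it was passed at the same total FPKM (0.29, adjusted p = 0.0073) and after quantile normalization (0.22, adjusted p = 0.022). The ratio of Rrm2 to Rrm1 was 1.40 and 1.37 in the NSCs and 1.09, 0.994 and 0.994 in the STO cells, so the small subunit exceeded the large one in NSCs and about equalled it in STO cells. The exact permutation p of that ratio was 0.1, the smallest this design allows.

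The E cyclins, which activate Cdk2 at S phase entry, changed in opposite directions. Ccne1 was 17.4 and 18.0 FPKM in the NSCs and 21.7, 19.9 and 23.1 FPKM in the STO cells (0.27, adjusted p = 0.0123), and Ccne2 was 11.3 and 9.67 against 6.95, 7.46 and 8.24 FPKM (-0.43, adjusted p = 0.00502). The groups did not overlap for either gene. The ratio of Ccne2 to Ccne1 was 0.653 and 0.536 in the NSCs and 0.321, 0.374 and 0.356 in the STO cells, so Ccne1 was the more abundant E cyclin in every sample and by more in STO cells. The call of Ccne1 was lost when the first or the second NSC sample was left out (adjusted p = 0.11 and 0.072) and that of Ccne2 without the first NSC sample (adjusted p = 0.071). The Ccne2 locus overlaps that of Ints8. Cdk2, their kinase partner, was 17.4 and 18.6 FPKM in the NSCs and 24.8, 21.8 and 21.9 FPKM in the STO cells (0.32, adjusted p = 0.00615), a call lost without the first NSC sample (adjusted p = 0.077).

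A wider list of 51 other replication genes, with the kinases, accessory subunits and fork factors around the members, showed a like balance. Of these, 29 (56.9%) were higher in STO cells and 15 (29.4%) lower, against 41.9% and 43.7% of all genes tested, and 7 did not pass the test. Of the 12 genes of licensing control and origin firing, 10 were higher and 2 were lower. Of the 9 single-strand binding and Okazaki fragment genes, 3 were higher and 5 were lower, and of the 9 accessory polymerase and primase genes, 4 were higher and 3 lower. All 3 partners of the E cyclins and 3 of the 4 histone chaperones coupled to replication were higher. The dNTP supply genes were divided, with 3 higher and 3 lower of 7.

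The largest rises on this list were those of Samhd1 and Dbf4. Samhd1, an enzyme that breaks down deoxynucleotides, was 7.58 and 7.39 FPKM in the NSCs and 27.3, 27.9 and 27.8 FPKM in the STO cells (log2 difference 1.76, adjusted p = 2.09e-07). Dbf4, the activating subunit of the Cdc7 kinase, was 20.2 and 22.8 FPKM in the NSCs and 58.9, 59.8 and 62.3 FPKM in the STO cells (1.45, adjusted p = 2.59e-06). Both genes were apart between the cell types in every sample. The largest falls were in subunits of polymerase delta. Pold4 was 42.7 and 44.3 FPKM in the NSCs and 17.0, 14.2 and 16.9 FPKM in the STO cells (-1.39, adjusted p = 1.09e-05), a fall that was smaller when only the highest transcript was taken (-0.52, adjusted p = 0.0023) or length decile medians were subtracted (-0.86). Pold2 was 45.7 and 44.5 FPKM in the NSCs and was listed at 0 in all 3 STO samples, although it encodes an essential subunit of the polymerase and Pold1 was present there. An exact 0 in these files can be a failed estimate, so no fold is given, and without Pold2 the list held 14 lower genes.

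For 13 of the 51 genes the call or the direction depended on how the samples were scaled to each other, and the differences of these genes were small. Scaled as deposited, Mcm9 (-0.44), Pold3 (-0.26), Dctd (-0.19), Donson (-0.19) and Clspn (-0.19) were lower and Dscc1 (0.32) was higher in STO cells, and each of these 6 calls was lost under at least 1 of the other scalings tried. Prim2 (-0.11), Timeless (-0.09), Chtf8 (-0.09), Dut (-0.07), Pole4 (-0.07), Lig1 (-0.01) and Tipin (0.12) did not pass the test as deposited, and all of them except Tipin changed sign when the samples were brought to the same total FPKM. Tipin passed the test at the same total FPKM (0.29, adjusted p = 0.0011) and after subtraction of length decile medians (0.65, adjusted p = 2.46e-05), as did Chtf8 after that subtraction (-0.19, adjusted p = 0.0105) and Dut when only the highest transcript was taken (-0.51, adjusted p = 0.0012). Prim2 passed as lower under median of ratios scaling (-0.15, adjusted p = 0.047) and quantile normalization (-0.15, adjusted p = 0.041). Chtf8 also passed as lower under median of ratios scaling (-0.13, adjusted p = 0.049).

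**Figure D4:**
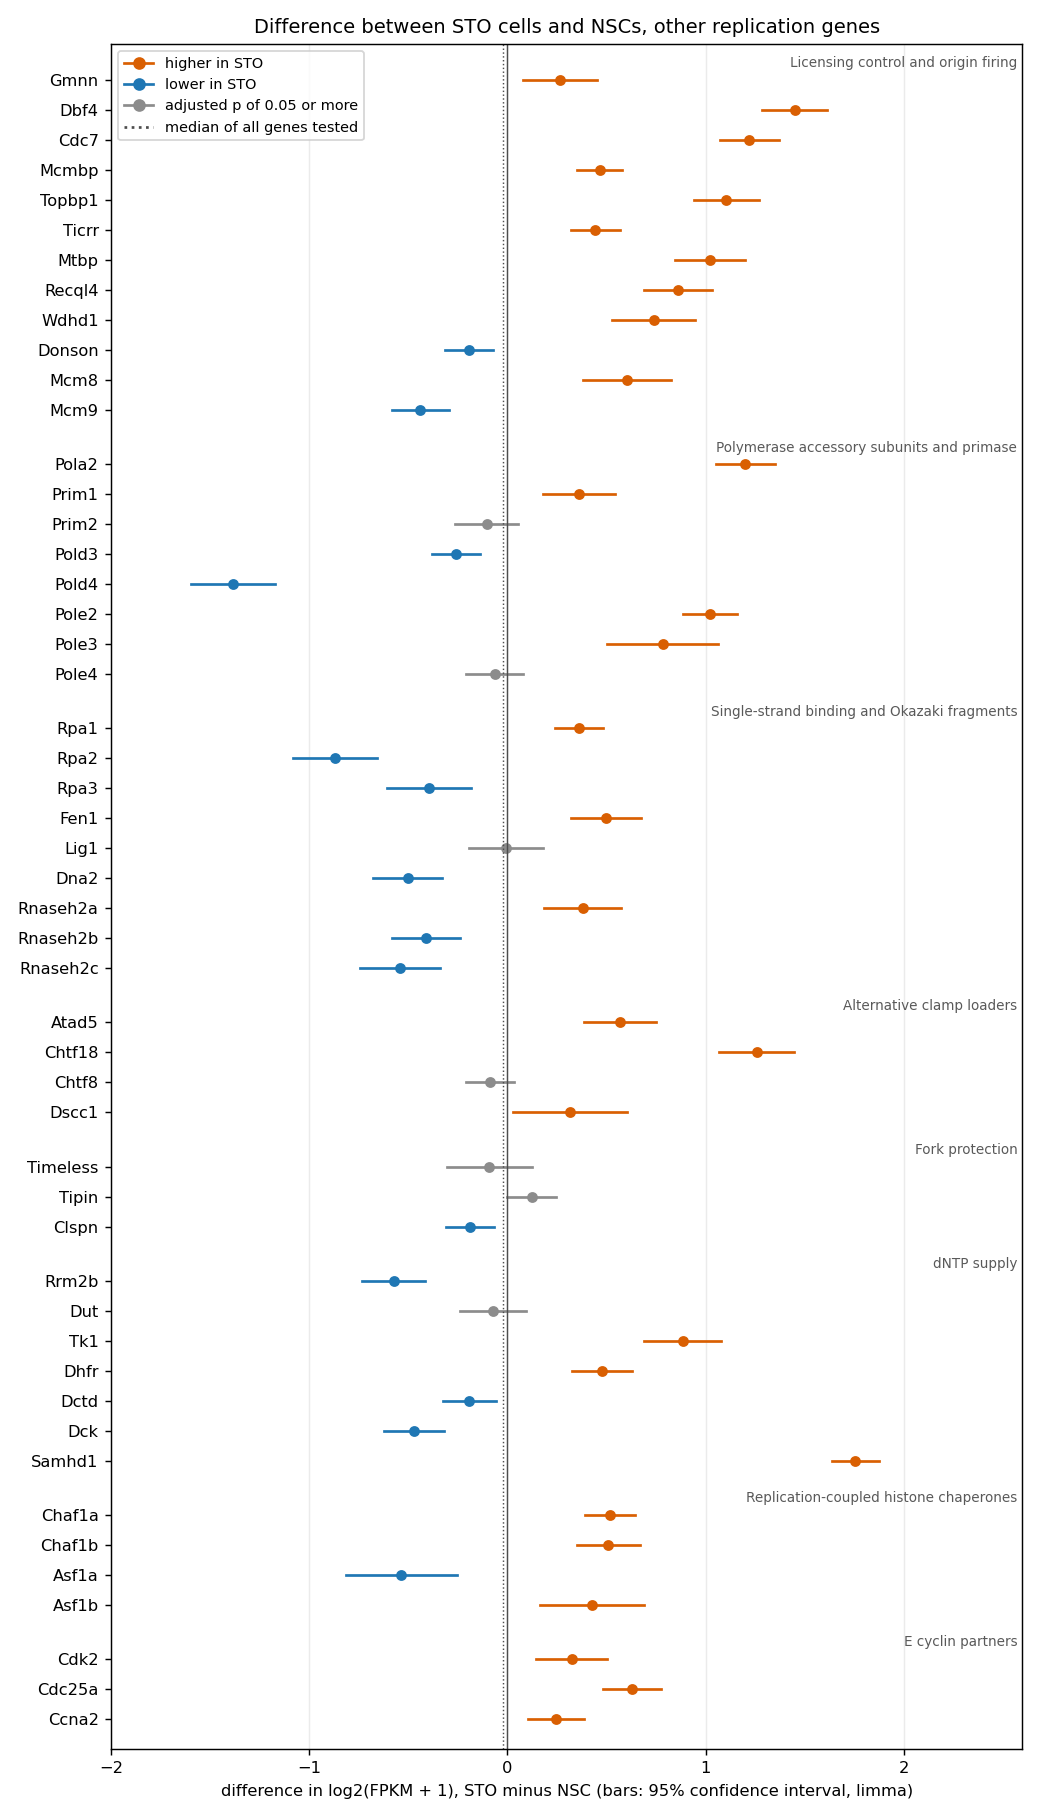
Difference in log2(FPKM + 1) between STO cells and NSCs for the other replication genes by role, as the limma estimate with its 95% confidence interval, coloured by the call at an adjusted p of 0.05. Pold2, listed at 0 in all STO samples, is left out, and of the 50 genes drawn 29 were higher and 14 lower, from -1.39 for Pold4 to 1.76 for Samhd1.

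Differences also varied with transcript length in these libraries. Among all tested genes with a length in the annotation (10637 genes, longest coding transcript), the median log2 difference was -0.53 in the shortest decile, of at most 1328 bases, and 0.21 in the longest. Across the 34 members, which share the same 5 libraries, longer genes had larger differences (Spearman's rho 0.44, Pearson's r with log2 length 0.54), whereas rho was 0.10 over all genes. The long genes Pola1 and Pole were among the 3 largest rises, and the short genes Rfc4, Pcna and Gins1 had the largest falls. When the median of each gene's length decile was subtracted, 18 members were higher and 6 lower, against 4487 and 4517 of the 10637 genes. The calls of Gins1 (-0.11, adjusted p = 0.33), Mcm5 (0.10, adjusted p = 0.15) and Mcm6 (0.09, adjusted p = 0.22) were lost. Several called values moved by over 1.5 times under this subtraction. Rfc4 moved from -0.83 to -0.30 (adjusted p = 0.0057), so that Pcna (-0.67) and Gins2 (-0.65) had the largest falls, and Rfc3 moved from 0.69 to 1.21. Mcm4 moved from 0.30 to 0.17 and Pold1 from -0.19 to -0.32, with their calls kept. The lengths came from GENCODE vM1 rather than from the RefSeq transcripts behind the FPKM, so the decile of a gene may be off. In the first NSC sample Gins2 (3900 bases, 29.2 FPKM) gave 669 implied fragments, whereas Rfc5 (2796 bases, 20.7 FPKM) gave 1115. Whether the lengths match was not tested, and neither was the part of length in these differences beyond this.

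**Figure D5:**
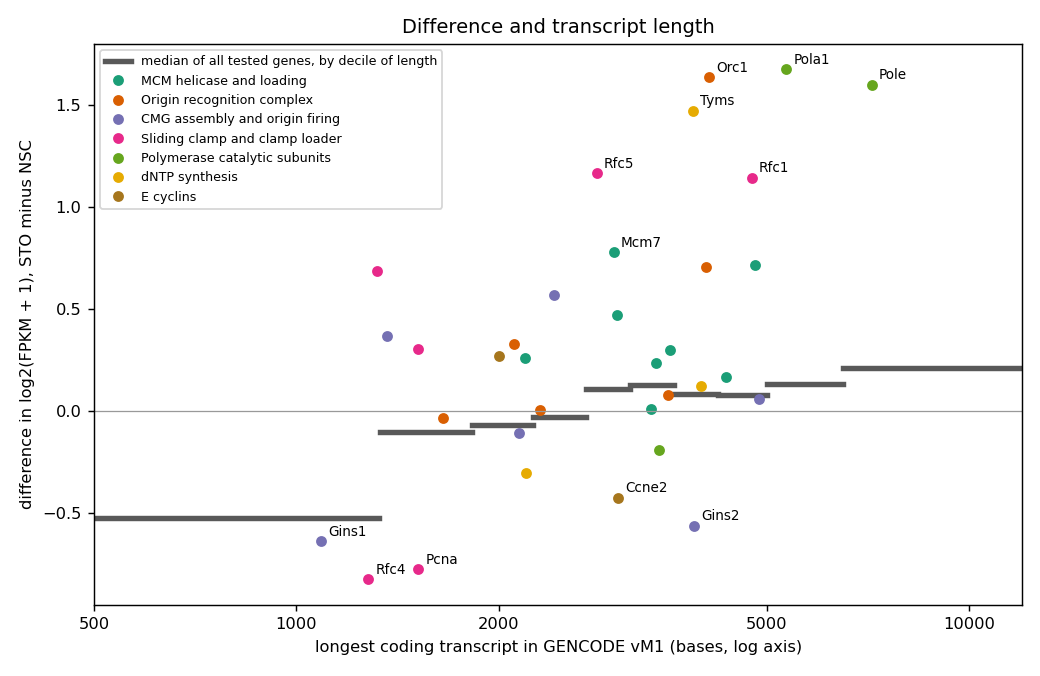
Difference in log2(FPKM + 1) between STO cells and NSCs against the length of the longest coding transcript in bases (log axis), with each replication gene as a point coloured by role and the median of all tested genes in each decile of length as a bar. The bars run from -0.53 in the shortest decile to 0.21 in the longest, and the large rises of Orc1, Pola1, Pole, Tyms, Rfc1 and Rfc5 all lie above the bars at their length.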

How the data were processed

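Stranded poly(A) mRNA libraries of 2 NSC and 3 STO samples were sequenced as paired reads. Per the paper's methods and the submitters' processing notes, the authors trimmed the reads, aligned them to mm9 with HISAT2 (version given as 4.8.2) and estimated FPKM with Cufflinks 2.2.1 against RefSeq transcripts. Whether Cufflinks was told the strand is not given in the sources used here. The deposited values are FPKM per transcript, with a confidence interval and a status, normalized by the authors to transcript length and mapped fragments. FPKM are not counts, so no count test was run. The depth was read from the intervals, taking the upper bound as 2 Poisson standard deviations, and it limits counting error only.

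Transcripts were matched to symbols through RefSeq gene names (39946 of 40201 rows, 99.4%) and summed per gene. The 12293 genes that reached a mean of 1 FPKM in NSCs or STO cells, all 34 members among them, were compared on log2(FPKM + 1) with limma 3.58.1 in R 4.3.3 (empirical Bayes with trend), with Benjamini-Hochberg adjustment over all of them and a threshold of 0.05. Differences are STO minus NSC on that scale, which understates changes of low genes. On simulated data of 12293 genes, with 200 of them changed by 1 on the log2 scale, the fit recovered 187 of the changed genes and made 13 wrong calls among the unchanged ones. In the real data most genes were called and the median size of the members' differences was 0.40. Recovery in that setting was not simulated. Ratios within samples were compared by exact permutation tests. Gene spans are those of the files in mm9, written from 1, with strands from GENCODE vM1. Promoter windows are from RefSeq on GRCm38.p6 and were not converted. The members, the other lists, the ratios and the motifs were chosen with earlier results of these data known. All members are named. Of the other replication genes, the 2 largest rises, the 2 largest falls, Gmnn, Cdk2 and those that depended on the scaling are named. Replicate numbers are shared between the groups, but nothing says that they pair samples. Alternatives were other pseudocounts, filters, scalings and variance settings, a replicate block, the highest transcript only, rows with status OK only and leaving out each sample. The block fit left out the last STO sample, whose number no NSC sample shares. The highest transcript of a gene was that with the highest mean FPKM over all samples. Chosen after seeing the data were a subtraction of length decile medians and the ratios' own alternatives.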

Additional observations from a re-analysis of the deposited data

How the results depend on the processing

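Of the 34 replication genes, 18 kept their direction and their side of the threshold under all 17 fixed alternatives but the log2 threshold and under the added length adjustment, and 16 changed under at least 1. With a log2 difference of at least 1 required, 2103 genes were higher and 2617 lower, 6 members were higher and 0 lower, and 8 of the other replication genes were higher and 2 lower. Bringing all samples to the same total FPKM moved the median of all genes from -0.02 to 0.13 and that of the members from 0.26 to 0.43. It gave 24 members higher and 5 lower, among 5885 and 4684 genes. That scaling made Mcm2, Orc2, Mcm10 and Rrm1 pass the test and took the calls of Pold1 and Rrm2. It turned Orc6 to 0.13, Cdc45 to 0.057, Prim2 to 0.061, Pole4 to 0.10, Lig1 to 0.16, Chtf8 to 0.084, Timeless to 0.070 and Dut to 0.094. Median of ratios scaling turned Mcm2 to -0.031 and Orc3 to -0.033, took the call of Mcm6, and made Prim2 (-0.15) and Chtf8 (-0.13) pass the test. Quantile normalization turned Lig1 to 0.028 and made Rrm1 (0.22) and Prim2 (-0.15) pass the test. The highest transcript turned Gins1 to 0.24, Orc6 to 0.19, Timeless to 0.34 and Orc3 to -0.0058, and made Orc2 (0.27) and Dut (-0.51) pass the test. The length adjustment turned Mcm2 to -0.12, Orc2 to -0.051, Mcm10 to -0.020, Orc6 to 0.067 and Pole4 to 0.039, and made Tipin (0.65) and Chtf8 (-0.19) pass the test. Except for Gins1, each gene that turned had an adjusted p of 0.05 or more as reported, and the cause was not tested.

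Leaving out each STO sample in turn gave 18 or 19 members higher and 7 lower, among 4974 to 5066 genes higher and 5192 to 5251 lower. The median difference of the members was 0.21 without the first NSC sample and 0.31 without the second. In these last fits the NSC sample left alone was assumed to vary as the STO samples do, so counts of calls are not given for them. Several calls of single members were lost in them, as given above. The steady counts therefore hold for leaving out STO samples only. Over all fits with 1 sample left out, Mcm2 ranged from -0.068 (without the first NSC sample) to 0.088, Orc3 from -0.039 (without the last STO sample, and -0.0027 without the second NSC sample) to 0.038, Orc6 from -0.16 to 0.085 (without the second NSC sample, and 0.016 without the second STO sample), Cdc45 from -0.24 to 0.024 (without the first NSC sample), Timeless from -0.22 to 0.037 (without the second NSC sample) and Lig1 from -0.12 to 0.10 (without the second NSC sample, and 0.015 without the first STO sample), each across 0. The log2 ratio of Cdt1 to Gmnn, -0.0053 as reported, ranged from -0.20 to 0.19 and crossed 0 without the second NSC sample and, at 0.049, without the last STO sample. With a replicate block, which left out the last STO sample, 18 members were higher and 7 lower, among 4995 and 5253 genes. Orc3 turned to -0.039, and Mcm5 (adjusted p = 0.057) and Mcm6 (adjusted p = 0.16) lost their calls. The differences of Orc3 (-0.039), Mcm5 (0.20) and Mcm6 (0.13) were the same without the last STO sample and without a block. In that fit the Mcm5 call held (adjusted p = 0.033) and the Mcm6 call did not (adjusted p = 0.099). The deviations of same-numbered samples correlated at 0.01 and 0.06, and those of differently numbered samples at -0.06 to 0.05, so the numbers were not shown to pair the samples. The lowest number of implied fragments of a member in a sample was 233, and with 2 NSC samples the spread of that group rests on 1 difference.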
